A study of Mus musculus with 2 samples.

Results

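Interferon-stimulated effector genes are the genes through which interferon makes a cell resistant to infection, and their RNA was measured here in plasmacytoid dendritic cells (pDCs) with and without the transcription factor Runx2. The list of 45 genes was fixed by name, as well-known antiviral and antimicrobial effectors, and not by a cutoff on the measured difference. Of these, 39 had a probe set of their own on the array, among 19938 named genes. Where a gene had several probe sets, the one with the highest mean log2 value of both arrays was used. Isg15, Irgm2, Igtp, Gbp2 and Ifi204 share their probe set with another gene and Ifi44 has none in the annotation used, so these 6 members were not analysed here. The 6 probe sets that carry a member's symbol beside another gene's, a group that also holds second probe sets of Oas1a and Sp100, differed by -0.18 to 0.97 on the log2 scale, and 5 of them were above 0.

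One group was bone marrow pDCs of genotype Runx2-/- and the other was wild type pDCs. Both came from fetal liver chimeras, mice given fetal liver cells to rebuild their blood, 2 months after reconstitution. The pDCs were sorted as CD11b-negative cells that carry BST2 and B220, and the labels name no treatment with interferon or a pathogen. Each group was 1 sample on 1 Affymetrix Mouse Gene 1.0 ST array made from 250 ng of total RNA, with column medians of 182 intensity units (Runx2-deficient) and 183 (wild-type). The number of mice or pooled mice, their strain, age and sex, and the share of host cells left in the chimeras are not stated in the labels. With 1 array per genotype there was no test: no value has a replicate error, and the text gives levels, folds, counts and medians of these 2 arrays only. In bulk RNA, fewer cells of a type and less RNA per cell cannot be told apart.

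Type I interferons signal through the receptor chains IFNAR1 and IFNAR2 and the kinases JAK1 and TYK2, and the signal ends at the interferon-stimulated response element (ISRE) in front of target genes. Interferon gamma acts mainly at gamma-activated sites (GAS), and the guanylate-binding proteins and immunity-related GTPases are classic targets of that route. pDCs are the specialised producers of type I interferon, and they express Irf7, a driver of interferon genes, before any infection.

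As a group, the members were somewhat higher on the Runx2-deficient array. Of the 39 measured members, 24 were above 0 in the log2 difference (Runx2-deficient minus wild-type), which is 61.5% against 42.6% of all named genes. The median difference was 0.18 over the members and -0.033 over all named genes. At least 2-fold higher were 3 members (7.69%), Ifi213, Ifit2 and Iigp1, against 0.436% of all named genes, and at least 2-fold lower was 1 member (2.56%), Samd9l, against 0.647%. At least 1.5-fold higher were 7 members (17.9%) against 1.73% of all named genes, and at least 1.5-fold lower were 2 (5.13%), Samd9l and Plscr1, against 2.22%. All named genes include many dim ones, whose differences RMA compresses: 10337 of 19938 reached the median level of their array (a log2 value of 7.61 for wild-type, 7.54 for Runx2-deficient) on at least 1 array. Of those brighter genes, 0.793% were higher by at least 2-fold and 1.17% lower by as much. By at least 1.5-fold, 3.02% of them were higher and 3.86% lower. Above 0 were 47.8% of them, with a median difference of -0.014.

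Of the members, 28 reached that level on both arrays. Ifit1, Oas2, Ifi205 and Ifi213 reached it on the Runx2-deficient array only, and Samd9l and Plscr1 on the wild-type array only. Ifit3, Oas3, Rtp4, Gbp3 and Parp12 stayed below it on both. The folds of these 11 members therefore rest on at least 1 dim value.

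**Figure D1:**
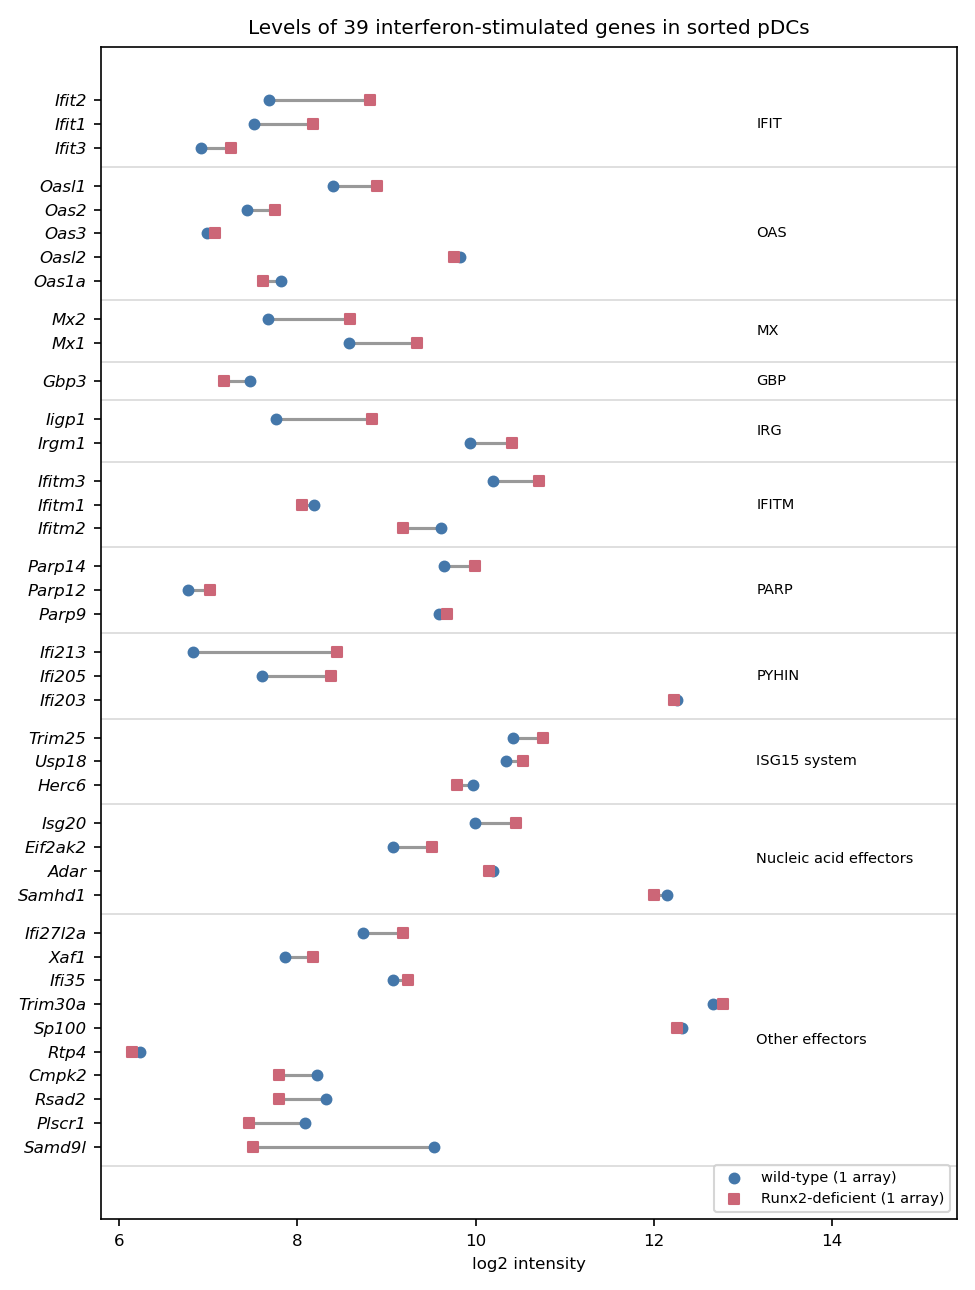
Levels of the 39 members (log2 intensity, horizontal axis) on the wild-type array (circles) and the Runx2-deficient array (squares), 1 array each, grouped by subfamily or role. The squares of Ifit2, Mx2, Iigp1 and Ifi213 lie far to the right of their circles, and that of Samd9l lies far to the left, at 7.51 against 9.53.

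The 5 compared subfamilies went different ways. MX, IRG and IFIT genes were higher on the Runx2-deficient array, with median differences of 0.85 (2 genes), 0.78 (2 genes) and 0.66 (3 genes). The OAS genes were spread around 0, with a median of 0.090 (5 genes), and the only measured GBP member, Gbp3, was at -0.29. The range of the OAS genes (-0.20 to 0.49) overlapped that of the IFIT genes (0.34 to 1.14) and that of the IRG genes (0.47 to 1.09), while both MX genes lay above every OAS gene. These subfamilies hold 1 to 5 measured genes each, and the difference between them was not tested.

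**Figure D2:**
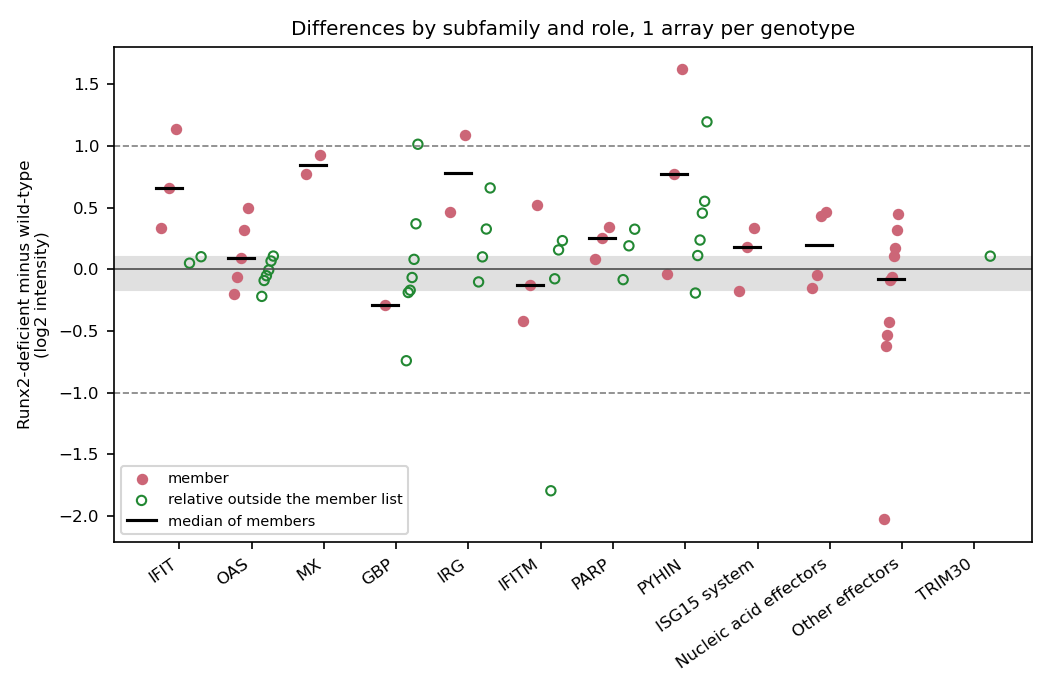
Difference in log2 intensity (Runx2-deficient minus wild-type, 1 array each) for each member (filled), with the median of each group of members (bar), and for relatives of the same family outside the member list (open). The grey band holds the middle quartiles of all named genes and dashed lines mark 2-fold; all IFIT, MX and IRG members lie above the band, while OAS and IFITM members lie on both sides of 0.

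IFIT proteins bind viral RNA that lacks the cap marks of the cell's own messenger RNA and keep it from being translated. Ifit2 was at 205 (wild-type) and 449.6 intensity units (Runx2-deficient), 2.20-fold higher. Ifit1, the main sensor of unmarked caps, was at 183 and 288 (1.58-fold). Ifit3, which stabilises IFIT1 on RNA, was at 121 and 152 (1.26-fold), below the brightness level on both arrays. All 3 were thus higher on the Runx2-deficient array, in unequal amounts. The relatives Ifit3b and Ifit1bl2, both dim on both arrays, differed by 0.049 and 0.10.

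The promoter stretches of Ifit1 and Ifit3, both higher on the Runx2-deficient array, hold the letters of the ISRE. They are printed 5′ to 3′ on the strand of the gene, from RefSeq on GRCm38.p6, with capitals for matches to the ISRE core, GAAANNGAA or TTCNNTTTC on the other strand. Ifit1 (bases -124 to -61 counted from the start site of the RefSeq window, chr19:34640765-34640828, plus strand) and Ifit3 (bases -170 to -79, chr19:34583359-34583450, plus strand) hold 3 matches each.
Ifit1: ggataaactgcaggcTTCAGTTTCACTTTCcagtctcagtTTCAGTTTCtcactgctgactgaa
Ifit3: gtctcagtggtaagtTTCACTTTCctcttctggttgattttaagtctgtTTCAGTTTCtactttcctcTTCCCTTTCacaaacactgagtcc
In Ifit1, the first of these matches overlaps the second. Neither of the 2 RefSeq windows of Ifit2, the IFIT gene with the larger fold, holds the letters of the core.

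MX proteins are dynamin-like GTPases that trap viral nucleoproteins, MX1 in the nucleus and MX2 in the cytoplasm of mouse cells. Mx1 was at 382 (wild-type) and 650.3 intensity units (Runx2-deficient; 1.70-fold higher), and Mx2 at 204 and 387 (1.90-fold higher). Neither reached 2-fold, and both reached 1.5-fold.

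OAS enzymes make the second messenger 2-5A when they meet double-stranded RNA, and 2-5A switches on the RNA-degrading enzyme RNase L. Oas1a was at 225 and 196 intensity units (wild-type, then Runx2-deficient), a log2 difference of -0.20. Oas2 was at 174 and 216 (0.31), and Oas3 at 127 and 135 (0.09). Of these classic synthetases none was 1.5-fold apart, and their signs were mixed. Few of all named genes were 1.5-fold apart (1.73% higher and 2.22% lower). The OAS-like genes also split: Oasl1, an inhibitor of Irf7 translation, was at 338 and 475 (0.49), and Oasl2 at 906 and 867 (-0.064). The 6 other Oas1 paralogs measured ranged from -0.22 (Oas1h) to 0.11 (Oas1b), all below the brightness level on both arrays. Oas1 genes are close copies of each other, and probes may take up RNA of more than 1 of them.

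The windows of Oas1a and Oas3 hold the same core letters as those of Ifit1 and Ifit3, shown here because these genes differed by less than 1.5-fold. Oas1a (bases -35 to -1, chr5:120907526-120907560, minus strand) and Oas3 (bases -90 to -46, chr5:120777705-120777749, minus strand) each hold 2 overlapping matches, in capitals as above.
Oas1a: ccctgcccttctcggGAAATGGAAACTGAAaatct
Oas3: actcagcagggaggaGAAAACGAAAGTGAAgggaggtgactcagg

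The immunity-related GTPases (IRG) attack the vacuoles in which intracellular parasites and bacteria live. Iigp1 (Irga6), an effector that coats such vacuoles, was at 216 (wild-type) and 459 intensity units (Runx2-deficient), 2.12-fold higher. Irgm1, a regulator that protects the cell's own membranes from the effectors, was at 983 and 1359.7 (1.38-fold higher). Both measured IRG members were higher on the Runx2-deficient array. Of 4 measured relatives, Gm4951 differed by 0.66, Gm12250 (Irgb10) by 0.33, Gm12185 by 0.10 and Irgq by -0.10.

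GBP proteins, larger GTPases that join the IRG proteins on pathogen vacuoles, showed no common direction. Gbp3 was at 177 (wild-type) and 144 intensity units (Runx2-deficient), below the brightness level on both. Of 7 measured relatives, 3 were above 0, which is close to the share of all named genes (42.6%). Gbp9 was 2.02-fold higher on the Runx2-deficient array (275 and 555 intensity units) and Gbp8 was 1.67-fold lower (1617 and 967). Gbp11, Gbp5, Gbp2b, Gbp4 and Gbp7 differed by 0.37, 0.08, -0.067, -0.17 and -0.19 on the log2 scale. Gbp genes lie in clusters of similar copies, so the values of single Gbp genes are uncertain.

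Irgm1 (0.47) and Gbp3 (-0.29) each hold 2 overlapping ISRE cores next to their starts, in opposite orientation. The stretches are bases -45 to -1 of Irgm1 (chr11:48871421-48871465, minus strand) and -59 to -15 of Gbp3 (chr3:142559985-142560029, plus strand), in the same build, with the matches in capitals.
Irgm1: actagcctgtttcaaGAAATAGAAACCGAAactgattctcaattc
Gbp3: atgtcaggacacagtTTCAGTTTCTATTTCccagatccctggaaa

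PYHIN genes of the Ifi200 cluster encode nucleic acid binding proteins, among them sensors of DNA, and this family held the member with the highest fold. Ifi213 was at 114 (wild-type) and 349 intensity units (Runx2-deficient), 3.07-fold higher, the difference ranked 17 from the top of the 19938 named genes. Ifi205 was at 194 and 332 (1.71-fold higher). Ifi203 did not follow them, at 4893 and 4771 (a log2 difference of -0.036). The relatives also went from higher to near 0: Ifi208, Ifi214 and Ifi206 differed by 1.19, 0.55 and 0.45, all below the brightness level on both arrays, and Aim2, the sensor of cytosolic DNA, Ifi209 and Ifi207 by 0.24, 0.11 and -0.19. PYHIN genes are recent duplicates with shared sequence, and probes of one may take up RNA of another.

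The 3 measured PYHIN members carry a similar stretch around 1 ISRE core each before the start, printed because these neighbours differed by unequal amounts. The window of Ifi205 holds another core that begins at base 25 after its start. The stretches are bases -88 to -50 of Ifi213 (chr1:173599322-173599360, minus strand), -149 to -111 of Ifi205 (chr1:174031866-174031904, minus strand) and -50 to -12 of the second of 2 windows of Ifi203 (chr1:173942504-173942542, minus strand), with the core in capitals.
Ifi213: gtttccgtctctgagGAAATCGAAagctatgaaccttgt
Ifi205: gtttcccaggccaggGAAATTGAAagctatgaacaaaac
Ifi203: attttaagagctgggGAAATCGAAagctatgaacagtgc
Position by position, 28 of 39 bases were identical between Ifi213 and Ifi203, 26 between Ifi213 and Ifi205, and 27 between Ifi203 and Ifi205. The stretches were lined up on the core, so its fixed letters are identical by the search itself. No baseline from unrelated stretches was made.

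IFITM proteins sit in membranes and block the fusion of enveloped viruses, and their genes differed in direction. Ifitm3, the main barrier to influenza virus, was at 1168 (wild-type) and 1677 intensity units (Runx2-deficient; a log2 difference of 0.52). Ifitm2 was at 781 and 582 (-0.42), and Ifitm1 at 290.5 and 266 (-0.12). The other probe sets of Ifitm2 differed by -0.10 and -0.61 and the second of Ifitm1 by -0.069, so all probe sets of these 2 genes were below 0. Of the relatives, Ifitm6, which is known from myeloid cells, was 3.47-fold lower on the Runx2-deficient array (397 and 114 intensity units), while Ifitm7, Ifitm5 and Ifitm10 differed by 0.23, 0.16 and -0.077. Ifitm genes are close copies, and their probe sets may not be fully separate.

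The ADP-ribosyltransferases of the list were slightly higher on the Runx2-deficient array. Parp14 was at 801 (wild-type) and 1017 intensity units (Runx2-deficient; 0.35 on the log2 scale). Parp9, the partner of the ubiquitin ligase DTX3L, was at 772 and 817 (0.082), and the translation-blocking Parp12 at 109 and 130.1 (0.25). None was 1.5-fold apart, and few of all named genes were (1.73% higher and 2.22% lower). Parp11, Zc3hav1 (the antiviral protein ZAP) and Parp10 differed by 0.32, 0.19 and -0.084.

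ISG15 is a ubiquitin-like protein that is joined to other proteins during the interferon response, and the genes of this system differed little. Usp18, which removes ISG15 and dampens the interferon receptor, was at 1301 and 1476 intensity units (wild-type, then Runx2-deficient; 0.18). Herc6, the main ISG15 ligase of the mouse, was at 999.6 and 884 (-0.18). Trim25, a ligase that also modifies the RNA sensor RIG-I, was at 1368 and 1729 (0.34). The activating enzyme gene Uba7 and the conjugating enzyme gene Ube2l6, which are not members, differed by 0.21 and 0.40. Of the 5 measured genes of this system, 4 were above 0 (42.6% of all named genes were). At 1.5-fold, 0 were apart, and few of all named genes were (1.73% higher and 2.22% lower).

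Enzymes that act on nucleic acids or their building blocks, or respond to them, split into a higher pair and a pair near 0. Isg20, a ribonuclease, was at 1016 (wild-type) and 1398 intensity units (Runx2-deficient; 0.46), and Eif2ak2 (PKR), the kinase that stops translation on double-stranded RNA, at 539.6 and 729 (0.43). The RNA editing enzyme gene Adar was at 1173 and 1136 (-0.047). Samhd1, which empties the cell's pool of DNA building blocks, was at 4552 and 4097 (-0.15).

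The 4 members with the lowest differences were among the remaining effectors. Samd9l, an interferon-inducible restriction factor of poxviruses, was at 740.2 (wild-type) and 182 intensity units (Runx2-deficient), 4.07-fold lower, the difference ranked 31 from the bottom of the 19938 named genes. Plscr1, which limits virus entry and supports interferon signalling, was at 272 and 176 (1.54-fold lower), and its second probe set differed by -0.77 against -0.63 for the one used. Rsad2 (viperin), which makes a chain-terminating nucleotide against viral polymerases, was at 321 and 221 (1.45-fold lower). Cmpk2, the neighbour of Rsad2 in the genome, which supplies nucleotides for that reaction, was at 299 and 222 (1.34-fold lower). The lower level of both thus placed this neighbouring pair opposite to the IFIT and MX genes.

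Rsad2 also holds an ISRE core, shown for comparison with the higher genes above (bases -134 to -96, chr12:26456548-26456586, minus strand, match in capitals).
Rsad2: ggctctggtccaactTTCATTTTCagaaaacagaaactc
The RefSeq window of Cmpk2 does not hold the letters of the core, and the only match in the window of Samd9l begins at base 39 after its start.

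Other members of this group lay closer to 0. Ifi27l2a was at 427 and 584 intensity units (wild-type, then Runx2-deficient; 0.45 on the log2 scale), and the apoptosis factor gene Xaf1 at 232 and 289.6 (0.32). Ifi35 differed by 0.17, the ubiquitin ligase gene Trim30a by 0.10, the nuclear body gene Sp100 by -0.06 and Rtp4 by -0.091. Trim30d, a relative of Trim30a, differed by 0.11.

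**Figure D3:**
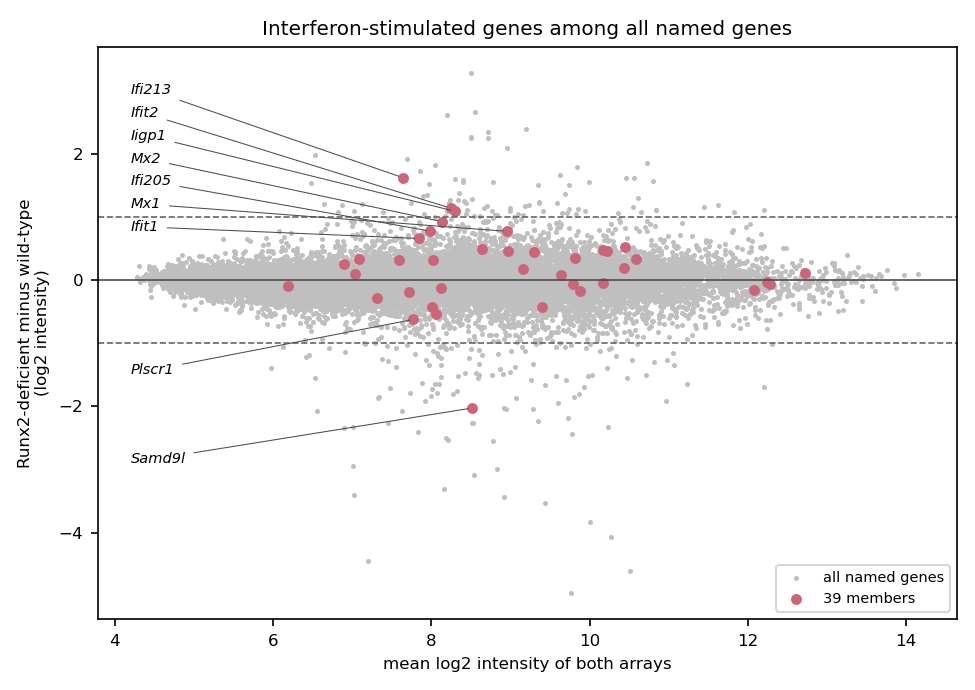
Difference in log2 intensity (Runx2-deficient minus wild-type) against the mean log2 intensity of both arrays for all 19938 named genes (grey) and the 39 members (red), 1 array per genotype, with dashed lines at 2-fold. Named are the 7 members at least 1.5-fold higher, which lie between 0.66 and 1.62, and the 2 at least 1.5-fold lower.

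The genes that carry the interferon signal to these effectors lay on both sides of 0. Of 18 measured receptor and signalling genes, 7 were above 0 (42.6% of all named genes were) and 0 were 2-fold apart (0.436% of all named genes were higher and 0.647% lower), so these counts were close to those over all genes. Their median was -0.059 and that of all named genes -0.033. The receptor chain genes Ifnar1 and Ifnar2 had wild-type log2 levels of 11.40 and 12.62 and differed by 0.14 and -0.26. The kinase genes Jak1 and Tyk2 differed by 0.051 and -0.28, and Stat2 and Irf9 by -0.11 and -0.015. Irf7, the factor that drives type I interferon genes in pDCs, was 1.60-fold lower on the Runx2-deficient array (10.89 and 10.21). It was the 1 gene of these 18 at least 1.5-fold apart. Over all named genes, 1.73% were higher and 2.22% lower by as much. Of the feedback inhibitors, Socs1 differed by -0.0078 and Socs3 by -0.28. On the interferon gamma side, Ifngr1, Ifngr2 and Irf1 differed by 0.25, -0.10 and -0.12.

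Interferon genes themselves differed by less than 1.5-fold between the arrays, as most named genes did. Of 16 measured ligand genes, 5 were above 0 (42.6% of all named genes were) and 0 were 1.5-fold apart (1.73% of all were higher and 2.22% lower), from -0.30 (Ifnl2) to 0.27 (Ifna9), with a median of -0.16. Ifnb1 was at 66.3 (wild-type) and 57.8 intensity units (Runx2-deficient), and 11 of the 16 stayed below the brightness level on both arrays. Interferon alpha genes are near-identical copies, so single values within that family are uncertain.

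Promoters of the members held the ISRE core more often than promoters in general, which bears on the name of the list. RefSeq windows from 250 bases before to 50 bases after a gene start were found for 35 of the 45 members, in 44 windows. The core lay in 23 of the 44 windows (52.3%) and in 8.56% of all 32851 windows of the same length. A GAS core (TTCNNNGAA, the same on both strands) lay in 11 member windows (25%) against 8.30% of all, and in 1 member window it overlapped an ISRE core. The Runx core (TGTGGT, or ACCACA on the other strand) lay in 8 member windows (18.2%) against 16.8% of all windows. Windows of 1 gene can overlap, and a match is a string of letters, not a measured binding site. Among members with both a window and a probe set of their own, the 17 with an ISRE core had a median difference of 0.10 (from -2.03 to 1.62) and the 13 without it -0.060 (from -0.63 to 1.14), so the ranges overlapped widely.

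The sorted samples carried pDC genes at levels less than 1.5-fold apart, and several genes listed as markers of other blood cells at levels further apart. The 8 measured of 9 pDC markers, of which Bst2 was also used in the sort, summed to 60347 (wild-type) and 57812 intensity units (Runx2-deficient), with a median log2 difference of -0.046 and a range from -0.56 to 0.073 (Siglech). The lowest of them were Pacsin1 (1.47-fold lower on the Runx2-deficient array), Ly6d (1.37-fold) and Bst2 (1.24-fold). All 8 granulocyte markers were at least 2-fold lower on the Runx2-deficient array, with sums of 16773 and 1833, as were 3 of 4 measured erythroid markers (1532 and 444) and 2 of 4 platelet markers (5978 and 816). Over all named genes, 0.647% were lower by as much. Monocyte and macrophage markers split, with sums of 3446 and 1658. Ccr2 and Lyz2 had log2 differences of -2.23 and -1.59, while C1qb was 1.85-fold higher on the Runx2-deficient array (246 and 456) and Csf1r 1.56-fold higher (149.5 and 233). Ccr2 was at 1415 (wild-type) and 302 intensity units (Runx2-deficient). Whether its RNA came from monocytes or from the pDCs themselves cannot be told from bulk RNA. Adgre1 and Cd14 differed by 0.028 and -0.18. Of the 6 measured, 3 were above 0 (42.6% of all named genes were). Sums for B cell markers were 686 and 529, for T cell markers 691 and 699, for NK cell markers 233 and 264, and for conventional dendritic cell markers 8832 and 9958. The largest values in the last sum were those of Clec9a (3891 and 4366) and Flt3 (3424 and 4045). Bulk RNA cannot tell whether pDCs or conventional dendritic cells made the RNA of Clec9a and Flt3, so this sum does not measure conventional dendritic cells. Xcr1 (100 and 97.4) and Zbtb46 (142 and 131) stayed below the brightness level on both arrays, as did all 4 NK cell markers. The lowest value on either array was 15.3 intensity units, so no marker was at 0. Samd9l, Plscr1, Rsad2, Ifitm2 and Ifitm6 were lower on the same array as the granulocyte, erythroid and platelet markers, whose part in these differences was not tested. Ifit2, Mx2, Iigp1 and Ifi213, among other members, were higher on the same array as C1qb and Csf1r. Ccr2, Lyz2 and Cd14 of the same marker list were lower on that array. The part of these markers in the differences of the members was not tested either.

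**Figure D4:**
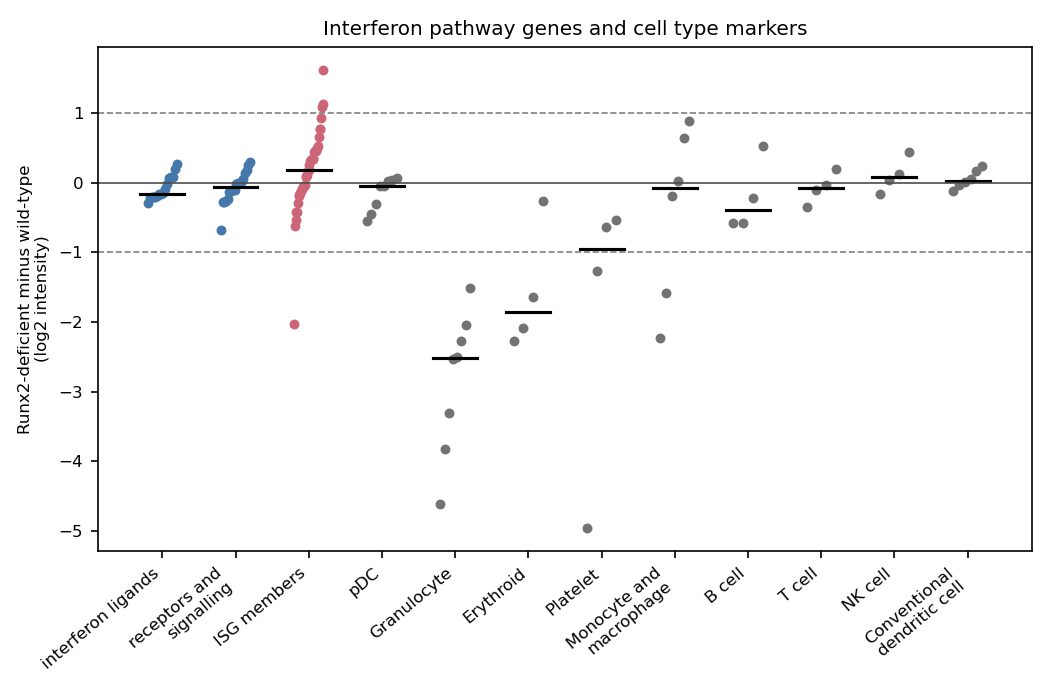
Difference in log2 intensity (Runx2-deficient minus wild-type, 1 array each) for interferon ligand genes, receptor and signalling genes, the 39 members and markers of 9 cell types; each point is a gene, bars are medians and dashed lines mark 2-fold. The ligand and receptor genes lie within 2-fold, the members reach from -2.03 to 1.62, and the granulocyte markers lie below -1.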

How the data were processed

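The deposited values are linear intensities, 1 per probe set and array (35556 probe sets). RMA (background correction, equalised probe distributions, probe summary) was applied before deposit, per the submitters' processing notes; the software, its version and which arrays were processed together are not stated there. Values were taken to log2 and differences are Runx2-deficient minus wild-type. Probe sets with exactly 1 gene symbol in the platform annotation (21789) gave 19938 genes; 1621 with several symbols and 12146 with none were not named. All 39 measured members matched RefSeq by gene identifier, with 0 symbols changed.

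The members, lists and thresholds (2-fold and 1.5-fold) were chosen with earlier results of these data known. Every measured member and every gene of the pathway, relative and marker lists could be named. Runx2 itself was not analysed here. Motifs were searched in RefSeq promoter windows (GRCm38.p6). Scripts were tested on simulated data. Alternatives were median centring, loess (span 0.3), averaged probe sets, a brightness filter, another threshold and reweighted members. Tools were statsmodels 0.14.6 (loess), pandas 2.3.3, numpy 2.4.6 and matplotlib 3.10.9 under Python 3.11.15. With 1 array per group, the number of arrays limits the precision.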

Additional observations from a re-analysis of the deposited data

How the results depend on the processing

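No member changed sign or crossed 2-fold under median centring, the loess correction or averaged probe sets. The furthest move of a member was 0.080 (Gbp3, loess). Averaging could move only the 3 members with several probe sets (Ifitm1, Ifitm2 and Plscr1), and none of them is in the 5 compared subfamilies. The median of all members, 0.18, became 0.21 after centring, 0.17 after loess, 0.22 without Samd9l and 0.10 with 1 value for each of the 5 subfamilies. Centring gave subfamily medians of 0.69 (IFIT), 0.12 (OAS), 0.88 (MX), -0.26 (GBP) and 0.81 (IRG), and loess gave 0.72, 0.17, 0.87, -0.21 and 0.79 in that order. The brightness filter, which gave 0.25 over the 34 members that passed it, 0.90 for IFIT and 0.13 for OAS and left no GBP member, is no check of these values: Ifit1, Oas2, Ifi205 and Ifi213 passed on the Runx2-deficient array only, and Samd9l and Plscr1 on the wild-type array only. At 1.5-fold, 7 members were higher and 2 lower, against 3 and 1 at 2-fold. No paired analysis was possible because each genotype has 1 array. Dim probe sets limit the smaller folds, since background cannot be set per gene from these values.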

Other observations

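Several members are neighbours in the genome, and the neighbours did not always differ alike. In the RefSeq gene order, 0 protein-coding genes lie between Rsad2 and Cmpk2, which were both lower on the Runx2-deficient array (-0.54 and -0.43 on the log2 scale), and 0 between Ifit2 and Ifit3, which were both higher (1.14 and 0.34). Oasl2 and Oasl1, also with 0 genes between them, differed by -0.064 and 0.49. Ifitm1 and Ifitm3, with 0 between them, had opposite signs (-0.12 and 0.52). Ifi203 and Ifi205 are separated by 1 gene and differed by -0.036 and 0.77. These pairs were looked at after their values were seen, and no test was made.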
